A study of Mus musculus with 16 samples.

Results

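Cebpa, Cebpb, Cebpd and Pparg encode the transcription factors of the core adipocyte differentiation programme, and each was measured on 16 arrays of mouse retroperitoneal fat, the depot that lies behind the abdominal cavity. They were chosen by name, by taking every probe set whose only gene symbol was one of the 4. Each had a single probe set, so the 4 genes rest on 4 of the 10833 probe sets with 1 symbol, or 4 of 8251 genes, and all 4 passed the filter on low signal that left 5686 genes to test. The Pparg probe set is of a type that can match several related transcripts. The CCAAT/enhancer binding proteins (C/EBPs) are leucine zipper factors that bind DNA as dimers. In cultured preadipocytes C/EBP beta and delta appear in the first hours after a differentiation stimulus and precede C/EBP alpha and peroxisome proliferator-activated receptor gamma (PPAR gamma), a nuclear receptor that binds with retinoid X receptors. The latter pair then maintain each other and switch on lipid storage genes, while C/EBP beta and delta are also known from the acute phase response, and Cebpd as a gene that glucocorticoids raise.

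All mice, controls included, were gonadectomised, which removes the main source of sex steroids. Of the 8 arrays of each sex, 2 were of vehicle-treated mice and 1 each of mice given 0.1 mg of dihydrotestosterone (DHT) under the skin at 1, 3, 6, 12, 18 or 24 h before necropsy. DHT is an androgen that aromatase does not convert to oestrogen. The protocol has fat of a group's mice gathered group by group, so 1 array may stand for several animals; their number, strain and age are not given in the sources used here. The vehicle arrays are described for 24 h only, so the time since an injection and the effect of DHT cannot be told apart at the shorter times. Below, 1, 3 and 6 h are called early and 12, 18 and 24 h late.

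The arrays carried the signature of fat, with one exception. The second male vehicle array held skeletal muscle RNA: all 9 of 9 muscle markers were highest and all 6 of the 8 adipocyte markers on the array were lowest there. The adipocyte marker signals summed to 4193 on it, against 47489 to 84022 on the other 15, and the muscle signals to 177791 against 8838 to 33717. Adiponectin (Adipoq) read 1946 there and 19206 to 31645 elsewhere. Macrophage and preadipocyte or fibroblast sums were higher on every female array than on any male array (17739 to 23346 against 10495 to 13294 for 8 of 8 macrophage markers, and 58335 to 93700 against 28718 to 33225 for 9 of 9 preadipocyte or fibroblast markers, the muscle-rich array left out). The 3 T cell markers on the array summed to at most 164 on any array, and pancreatic enzyme signals summed to 48378 on the female 12 h array against at most 2911 among the vehicle arrays. The members' main changes are given for all 16 arrays and for the 15 without the muscle-rich array, and the values of other genes mostly for the 15. Only 1 array stood for each sex and DHT time. The spread behind the p-values thus came from the vehicle pairs and from how far the male and female courses differed. It holds no repeat of a DHT group and may be partly technical.

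Promoter sequences of 250 bases upstream of a gene start were found in a RefSeq table (build GRCm38.p6) for 3 of the 4 members, not for Cebpd, in 5 windows. They are shown because the factors act on one another's genes through short binding motifs. Capitals mark, on either strand, the CCAAT box (CCAAT), a C/EBP core (TTGCNNAA), the TATA box (TATAAA) and the core of a cyclic AMP response element (TGACG); the last base printed adjoins the gene start.
Cebpa, chr7:35119043-35119292, + strand: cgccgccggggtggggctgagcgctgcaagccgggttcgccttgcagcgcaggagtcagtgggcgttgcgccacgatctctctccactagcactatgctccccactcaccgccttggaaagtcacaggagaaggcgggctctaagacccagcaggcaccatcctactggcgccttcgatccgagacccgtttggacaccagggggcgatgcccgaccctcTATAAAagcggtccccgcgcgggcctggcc
Cebpb, chr2:167688665-167688914, + strand: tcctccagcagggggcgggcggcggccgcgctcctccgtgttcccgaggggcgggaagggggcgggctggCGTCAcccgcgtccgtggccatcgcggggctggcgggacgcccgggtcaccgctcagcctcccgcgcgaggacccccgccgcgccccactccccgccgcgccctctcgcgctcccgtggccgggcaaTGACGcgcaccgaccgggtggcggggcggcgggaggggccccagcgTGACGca
Pparg, the last of 3 windows in coordinate order, chr6:115421816-115422065, + strand: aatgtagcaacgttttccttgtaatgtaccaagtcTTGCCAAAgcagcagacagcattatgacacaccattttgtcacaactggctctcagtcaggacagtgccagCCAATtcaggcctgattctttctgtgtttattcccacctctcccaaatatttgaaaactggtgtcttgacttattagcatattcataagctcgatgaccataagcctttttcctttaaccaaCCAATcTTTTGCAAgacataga

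The Cebpa window held a TATA box at position -30 from the start and none of the other 3 motifs. The Cebpb window, 81.6% G or C, held 3 cyclic AMP response element cores, the nearest 2 of them at positions -53 and -7 from the start, and 5 GC boxes (GGGCGG). The Pparg window shown was poor in G and C (40.8%) and was the only one of the 5 with a C/EBP core; its 2 matches began at positions -215 and -16, and 2 CCAAT boxes at -144 and -22. The first Pparg window in coordinate order held none of the 4 motifs, and the second held 1 CCAAT box and 1 TATA box. Among 32851 promoter windows of this length, 9.56% held a C/EBP core, 33.8% a CCAAT box, 12.4% a TATA box, 17.8% a TGACG core and 32.7% a GC box. A short binding motif of androgen and glucocorticoid receptors (TGTTCT on either strand), present in 16.1% of windows, was in none of the 5. A match is a run of letters and not a measured binding site, and no match speaks only of these windows.

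Cebpd rose in the first hours after DHT. Its signal was 852 and 822 on the male vehicle arrays and 666 and 777 on the female ones. In males it read 1590 at 1 h, 1319 at 3 h, 1771 at 6 h, 1323 at 12 h, 1084 at 18 h and 849 at 24 h. In females it read 1285 at 1 h, 1659 at 3 h, 1677 at 6 h, 1090 at 12 h, 913 at 18 h and 1045 at 24 h. Both sexes thus peaked at 6 h, and all 6 early arrays lay above all 4 vehicle arrays. That was so of 29 of the 5686 genes tested, or 0.51%, with 16 arrays and of 50, or 0.879%, with 15. The late arrays came back toward the controls: the male 24 h array fell just under the first male vehicle array. The muscle-rich array stood among the other vehicle arrays for this gene.

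**Figure D1:**
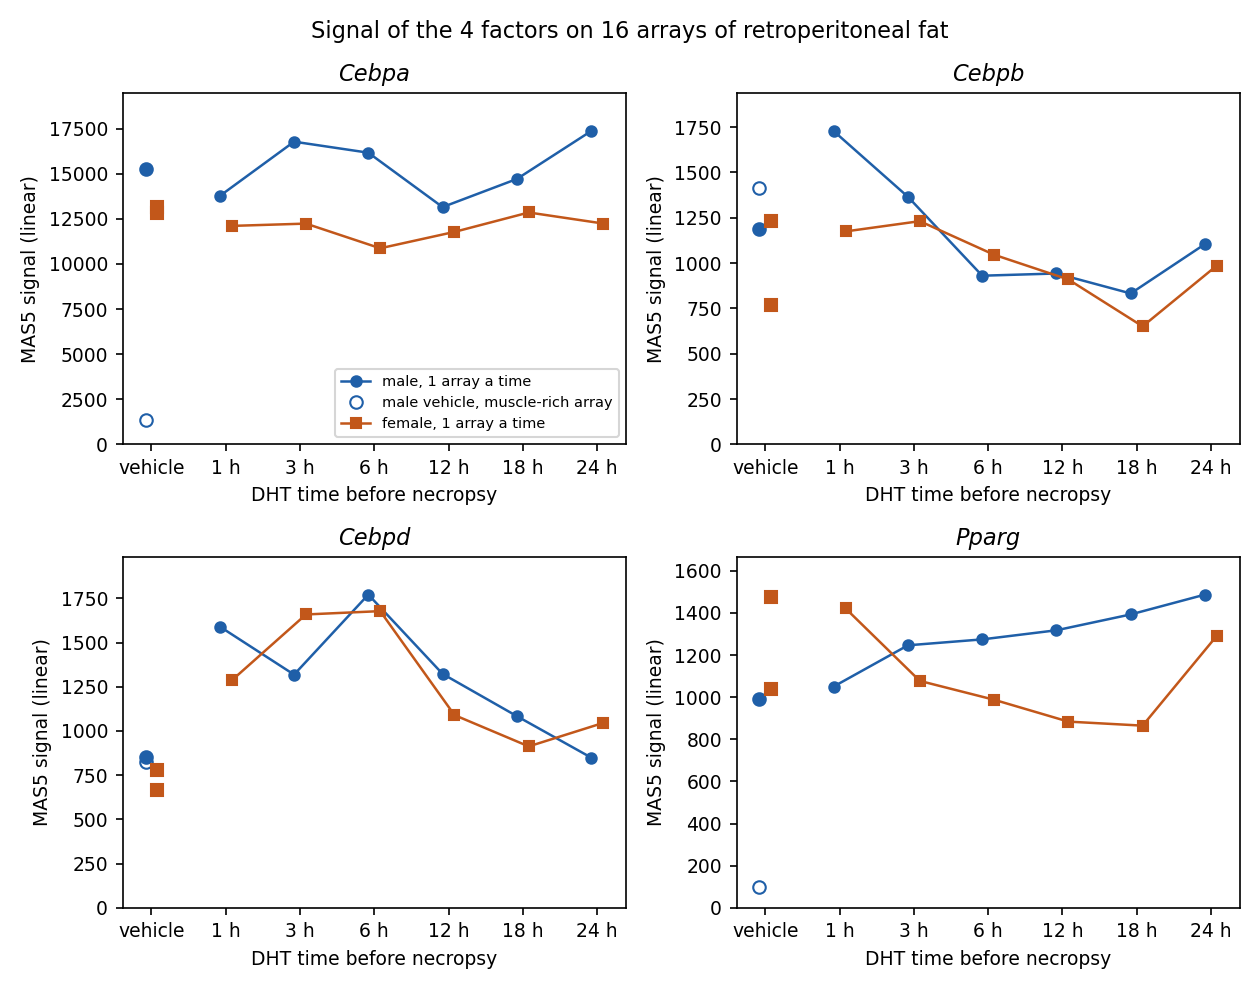
MAS5 signal on a linear scale from 0 of each factor, with vehicle arrays at the left and 1 array per sex at each DHT time; circles are males, squares females, and the open circle is the muscle-rich vehicle array. Cebpd peaked in both sexes at 6 h (1771 and 1677), and the muscle-rich array was lowest for Cebpa (1322) and Pparg (100).

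The mean Cebpd signal was 779 ± 81.4 (SD, n = 4) under vehicle, 1550 ± 201 (n = 6) at the early times and 1051 ± 165 (n = 6) at the late times. Over the early times the log2 change was 0.97 ± 0.14 (SE), or 1.96-fold, and it passed the test by a narrow margin (limma, adjusted p = 0.0495). That call belongs to 3 of 5686 genes, or 0.0528%. Without the muscle-rich array the change was 0.99 ± 0.14 (adjusted p = 0.0174; 6 genes called, 0.106%). Cebpd was the only one of the 4 members called at the early times, in either fit.

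At single times the Cebpd change reached its highest value at 6 h, 1.13 ± 0.19 on the log2 scale, or 2.20-fold, with adjusted p = 0.106 over 16 arrays and no member called (3 genes called, 0.0528%). With 15 arrays it was 1.15 ± 0.18 (limma, adjusted p = 0.0450; 5 genes called, 0.0879%). The values at 1 and 3 h, 0.87 ± 0.19 and 0.92 ± 0.19, did not pass (adjusted p = 0.961 and 0.794; 0 genes called at 1 h and 1, or 0.0176%, at 3 h in either fit), nor did those at 12, 18 and 24 h, 0.62, 0.35 and 0.27. Each of these rests on 2 arrays, 1 of each sex. Over all 6 times the change was 0.69 ± 0.13 (adjusted p = 0.160) with 16 arrays and 0.71 ± 0.13 (adjusted p = 0.137) with 15, and no member was called (4 genes, 0.0703%, and 5 genes, 0.0879%). The late times averaged 0.41 ± 0.14 above vehicle (adjusted p = 0.682; 0.43 ± 0.14 with 15 arrays, adjusted p = 0.825), and the late minus early difference was -0.56 ± 0.13 (adjusted p = 1.000; with 15 arrays -0.56 ± 0.11, adjusted p = 0.141). A moderated F test over the 6 times gave adjusted p = 0.853 and 0.275 for Cebpd with 16 and 15 arrays, and no member passed it.

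Cebpd was above the vehicle mean in both sexes at the early times. The ratio to the mean of the same sex's vehicle arrays was 1.90, 1.58 and 2.12 in males at 1, 3 and 6 h, and 1.78, 2.30 and 2.32 in females. All 6 DHT arrays of each sex lay above that mean, save the male 24 h array when the muscle-rich control was left out (ratio 0.997). The DHT response differed between the sexes by 0.17 ± 0.27 on the log2 scale (limma, adjusted p = 0.824), female minus male, and 0.19 ± 0.28 with 15 arrays. At this number of arrays the test called no gene in either fit, with 365 and 163 genes at an unadjusted p under 0.05.

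Limits of the early Cebpd call were the margin and a technical level that moved with it. In 15 of the 16 fits that each left out 1 array the early change no longer passed, at 0.89 to 1.05, and the exception was the fit without the muscle-rich array; with 15 arrays, 7 of 14 such fits passed. Control probe sets laid out in antisense for Actb and Gapdh read 6.38 to 6.75 (mean log2) on 4 of the 6 early arrays, male 1 h and female 1, 3 and 6 h, against 7.64 to 9.14 on the vehicle arrays. With that level as a covariate the early Cebpd change was 0.87 (adjusted p = 0.201) with 16 arrays and 0.83 (adjusted p = 0.146) with 15. Cebpd read 1319 and 1771 on the 2 early arrays where the antisense level was not low, male 3 h and male 6 h. It read 1285 to 1677 on the 4 where that level was low. As most early arrays had the low level, its part and that of early DHT cannot be told apart here.

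**Figure D2:**
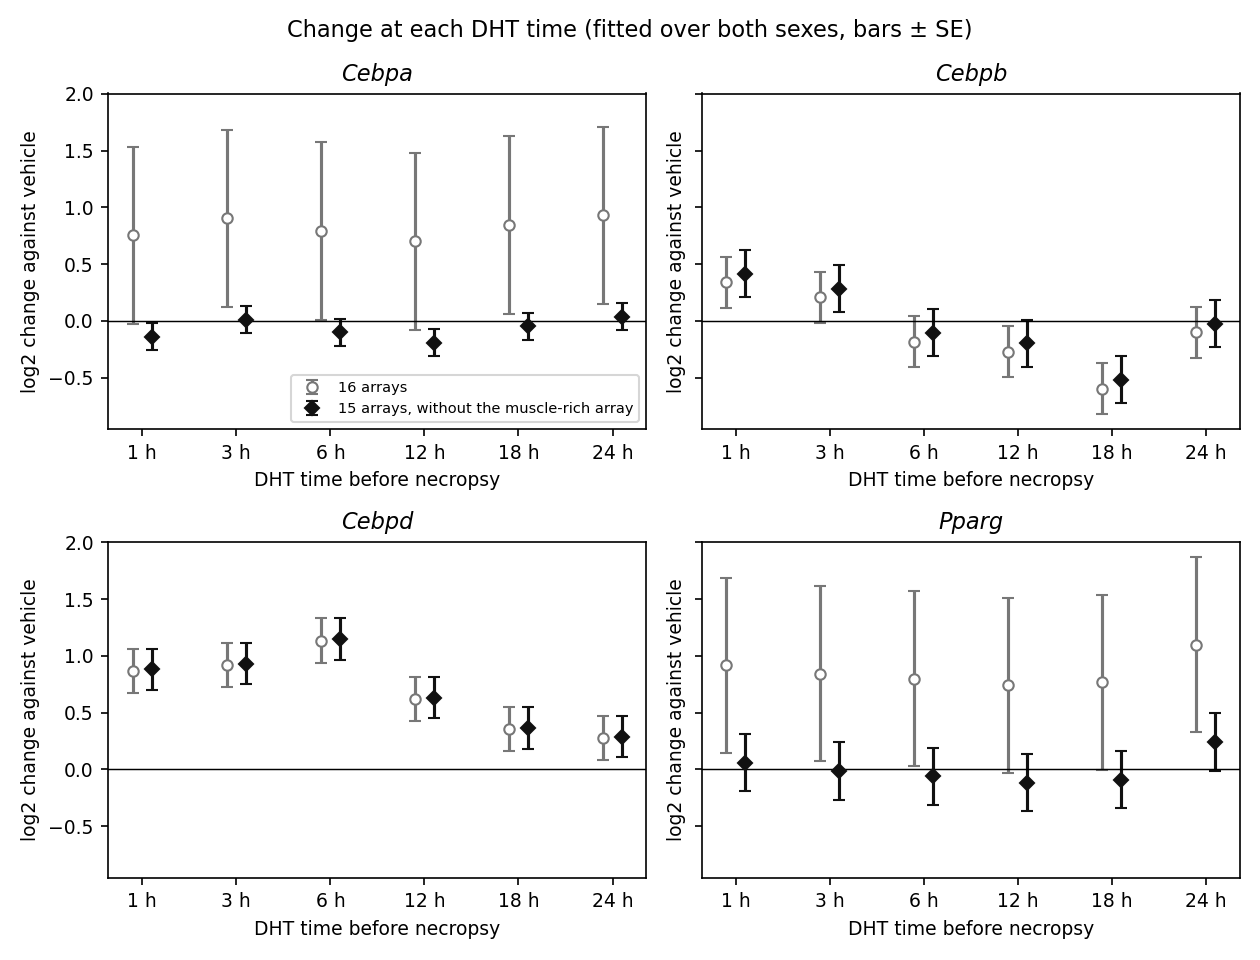
Log2 change of each factor against vehicle at each DHT time, fitted over both sexes, with bars of ± 1 SE; open circles use 16 arrays and filled diamonds the 15 without the muscle-rich array. The Cebpd change reached 1.13 at 6 h in the first fit and 1.15 in the second, while the values of Cebpa and Pparg moved down to near 0 when that array was left out.

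The genes whose pattern over the 15 arrays was most like that of Cebpd were Gadd45g (Pearson r = 0.89), a stress and growth arrest gene, Errfi1 (0.82), an inhibitor of epidermal growth factor receptor signalling, Krr1 (0.80), a ribosome assembly factor, Cyp4b1 (0.80), a cytochrome P450, and Zbtb16 (0.78), a zinc finger repressor. These are descriptions over arrays that share their scaling and their vehicle groups, out of 5682 genes ranked. Gadd45g also came first with 16 arrays (r = 0.90) and by Spearman's rho (0.91), and its r was 0.85 within the 7 males and 0.97 within the 8 females. Gadd45g read 308 to 386 on the 4 vehicle arrays, 794 to 1758 on the early and 435 to 1433 on the late arrays. Errfi1 read 695 to 862 under vehicle and 903 to 1687 under DHT. For both, all 12 DHT arrays lay above all 4 vehicle arrays, as for 4 of 5686 genes (0.0703%). Krr1 was highest of all arrays on the muscle-rich one (1680), and its r was 0.29 with that array included. Zbtb16 was highest there too (2134), with r = 0.62 over 16 arrays, and Cyp4b1 was lowest there (859), with r = 0.53.

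**Figure D3:**
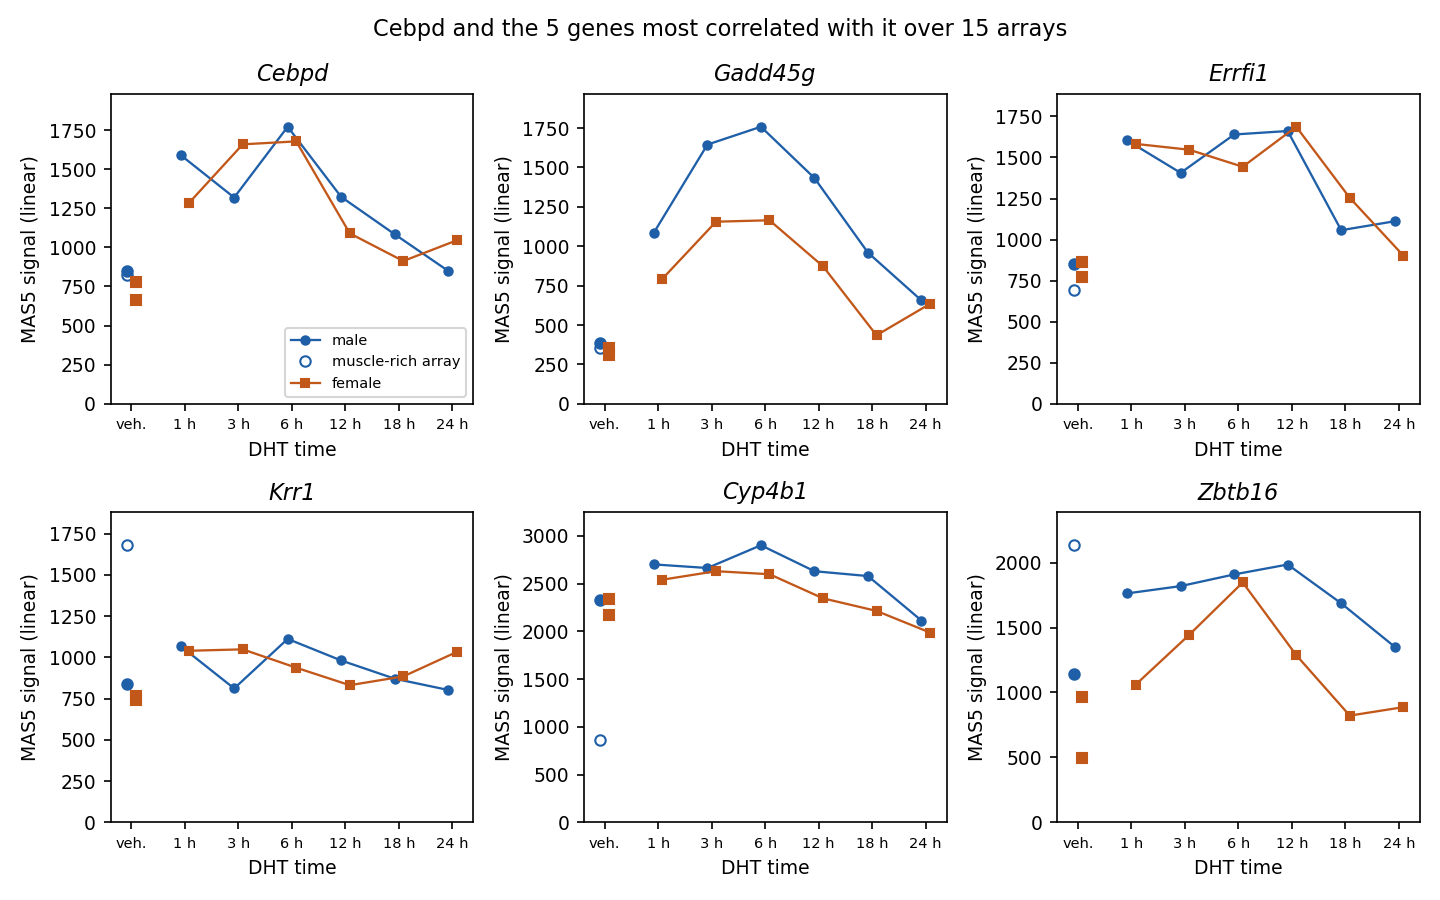
MAS5 signal on a linear scale from 0 of Cebpd and of the 5 genes most correlated with it over 15 arrays, by DHT time; circles are males, squares females, the open circle the muscle-rich vehicle array. Gadd45g (r = 0.89) and Errfi1 (r = 0.82) were above every vehicle array at every DHT time.

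Cebpb, the partner of Cebpd in the first wave of differentiation, did not pass any test. Its signal was 1187 and 1413 on the male vehicle arrays and 767 and 1232 on the female ones. In males it read 1728 at 1 h, 1366 at 3 h, 930 at 6 h, 943 at 12 h, 832 at 18 h and 1105 at 24 h. In females it read 1175 at 1 h, 1231 at 3 h, 1046 at 6 h, 910 at 12 h, 651 at 18 h and 987 at 24 h. The highest array of all was the male 1 h array, the lowest the female 18 h array, and in both sexes 18 h gave the lowest DHT value. Vehicle, early and late arrays overlapped.

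The mean Cebpb signal was 1150 ± 273 (SD, n = 4) under vehicle, 1246 ± 280 (n = 6) early and 904 ± 154 (n = 6) late. On the log2 scale the change at 1 h was 0.34 ± 0.22 and that at 18 h -0.60 ± 0.22 (limma, adjusted p = 0.961 and 0.703). The early change was 0.12, and 0.20 with 15 arrays. The late change was -0.32 ± 0.17 (adjusted p = 0.682; -0.25 ± 0.16 with 15 arrays, adjusted p = 0.999), and the late minus early difference -0.45 ± 0.15 (adjusted p = 1.000) with 16 arrays and ± 0.13 (adjusted p = 0.422) with 15. The late minus early contrast called 0 genes with 16 arrays, with 146 at an unadjusted p under 0.05, and 2 (0.0352%) with 15.

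Cebpb kept its level on the muscle-rich array (1413, or 1.22 times the mean of the other 7 male arrays), and its level went with the muscle marker level on the rest (r = 0.69 over 15 arrays, 0.69 within males and 0.63 within females). Atp2a1, the calcium pump of fast skeletal muscle, was among the 5 genes most like it (r = 0.81), beside Gnb2 (0.88), a G protein subunit, Zfp637 (0.81), a zinc finger protein, Gtpbp4 (0.81), a nucleolar GTP-binding protein, and Atxn10 (0.81). The muscle markers summed to 14100 to 33717 on the other 3 vehicle arrays, 15791 to 32227 on the early and 8838 to 24532 on the late arrays. Their part in the Cebpb values was not tested.

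Cebpa, which maintains the differentiated adipocyte, passed no test of DHT against vehicle, and its change lay near 0 once the muscle-rich array was left out. Its signal was 15282 and 1322 on the male vehicle arrays and 12804 and 13154 on the female ones. In males it read 13769 at 1 h, 16778 at 3 h, 16168 at 6 h, 13152 at 12 h, 14710 at 18 h and 17365 at 24 h. In females it stayed between 10868 (6 h) and 12853 (18 h). The muscle-rich array held 0.0863 times the mean of the other 7 males, the lowest of the 16; on the others the highest array was 24 h in males. In such bulk tissue fewer cells of a type and less RNA per cell cannot be told apart.

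Over all DHT times the Cebpa change was 0.82 ± 0.52 (limma, adjusted p = 0.630) with 16 arrays and -0.07 ± 0.08 (adjusted p = 0.998) with 15. The vehicle mean without the muscle-rich array was 13747 ± 1341 (SD, n = 3), the early mean 13655 ± 2377 (n = 6) and the late mean 13683 ± 2064 (n = 6). The response to DHT differed between the sexes by -1.87 ± 0.91 (adjusted p = 0.594) with both male vehicle arrays and -0.11 (adjusted p = 1.000) without the muscle-rich one.

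Cebpa was lower in females than in males when the muscle-rich array was left out. The female arrays averaged 12256 ± 721 (SD, n = 8) and the 7 male arrays 15318 ± 1555, and the groups touched: the lowest male array, 13152 at 12 h, lay just below the highest female one, 13154 under vehicle. The log2 difference, female minus male, was -0.33 ± 0.07 (limma, adjusted p = 0.00619), with 943 of 5686 genes called (16.6%), 441 of them lower in females (7.76%). With 16 arrays it was 0.12 ± 0.45 (adjusted p = 0.915), no member was called, and 327 genes were (5.75%; 263, or 4.63%, higher in females). Cebpa was the only one of the 4 members that passed with 15 arrays. All 14 fits that left out another array as well passed, at -0.35 to -0.29.

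Sex went with other properties of the arrays. By its middle probe set, BioB-M, a bacterial control RNA (BioB) read 415 to 1188 on the 8 male arrays. It read 760 on the second female vehicle array, but at most 16.1 on the other 7 female arrays. On its other 2 probe sets the male arrays and that female array read at least 215 and the other 7 at most 41.1. With the presence of that signal as a factor, chosen after seeing the data, the Cebpa difference over 15 arrays was -0.25 (adjusted p = 0.371). The second female vehicle array, which held BioB signal, read 13154 for Cebpa and the first, which did not, 12804. As no other female array held that signal, its part and that of sex cannot be told apart here. Adipocyte markers summed to 47489 to 64008 in females and 61826 to 84022 in the 7 males, and the female arrays held more macrophage and fibroblast marker signal, as given above. The part of this in the sex difference was not tested.

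**Figure D4:**
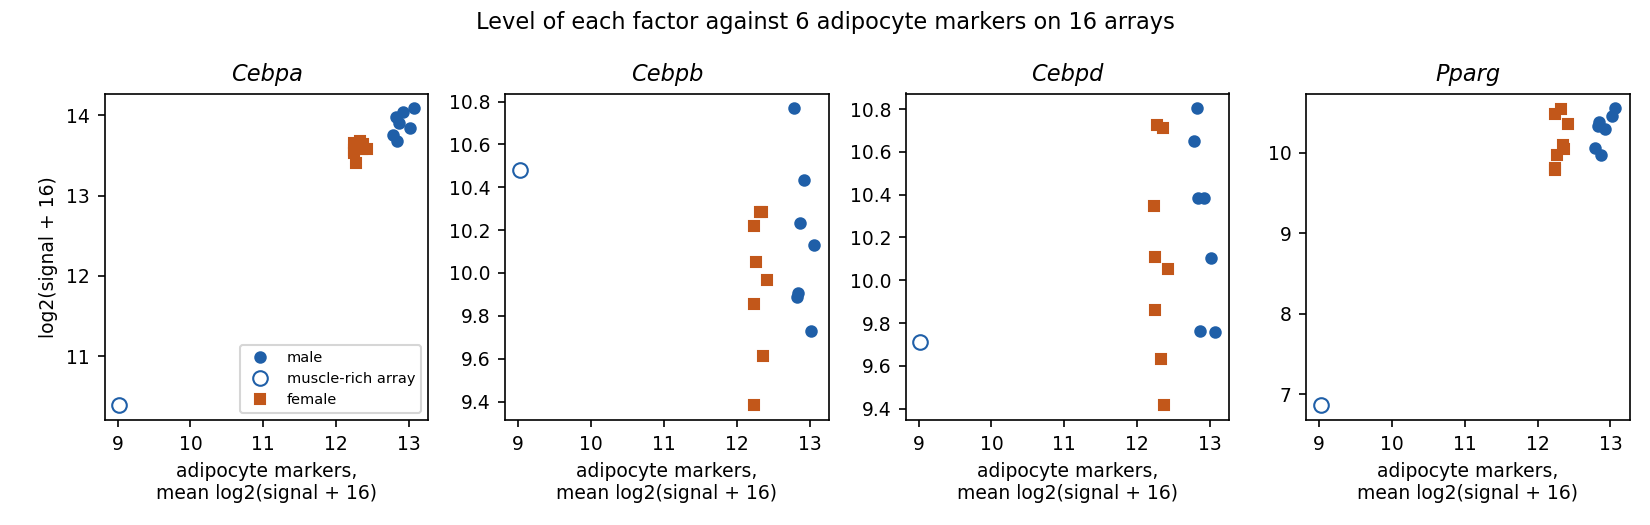
Level of each factor, as log2(signal + 16), against the mean log2 level of 6 adipocyte markers on 16 arrays; circles are males, squares females, and the open circle is the muscle-rich array. Cebpa and Pparg fell with the adipocyte markers on that array while Cebpb and Cebpd stayed within the range of the other 15.

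Across the 15 arrays Cebpa went with the adipocyte marker level (r = 0.86, and 0.98 with 16), but the sexes form separate clusters and within them r was 0.55 (7 males) and 0.29 (8 females). The genes most like Cebpa over 15 arrays were Mknk2 (r = 0.91), a kinase of translation factor eIF4E, Rarres2 (0.90), which encodes the adipokine chemerin, Pnpla2 (0.90), the adipose triglyceride lipase, Preb (0.89), a prolactin regulatory element binding protein, and Aoc3 (0.89), an amine oxidase of adipocytes. Within the males r was 0.74 to 0.92 for these 5 and within the females 0.10 to 0.47. With the muscle-rich array included, 238 genes had r over 0.9 with Cebpa against 2 without it.

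Pparg behaved as Cebpa did on the muscle-rich array and elsewhere read higher with time in males and lower, up to 18 h, in females. Its signal was 992 and 100 on the male vehicle arrays and 1041 and 1476 on the female ones. In males it read 1051 at 1 h, 1247 at 3 h, 1275 at 6 h, 1318 at 12 h, 1393 at 18 h and 1487 at 24 h, so that each later time was higher and all 6 exceeded the first vehicle array. In females it read 1422 at 1 h, 1077 at 3 h, 988 at 6 h, 884 at 12 h, 865 at 18 h and 1292 at 24 h, lower at each time up to 18 h. Only 2 of the 6 female DHT arrays lay above the female vehicle mean of 1258. Of the female DHT arrays, 3 lay between the 2 vehicle arrays and 3 below both. Within the 7 males other than the muscle-rich array, Pparg had r = -0.72 with the muscle marker level and 0.70 with the adipocyte marker level. Within the 8 females these were 0.42 and 0.36. The first male vehicle array had the highest muscle marker level of those 7 males (mean log2 10.99, then 10.72 at 1 h). The part of tissue make-up in the Pparg courses was not tested.

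These courses did not pass a test. The sex difference of the late minus early change, chosen after seeing the data, was -0.44 ± 0.28 on the log2 scale (limma, adjusted p = 0.976) with 15 arrays. The sex difference of the DHT response was -2.14 ± 0.84 (adjusted p = 0.594) with 16 arrays and -0.58 ± 0.35 (adjusted p = 1.000) with 15. Over all times and both sexes the DHT change was 0.86 ± 0.51 (adjusted p = 0.630) with 16 arrays and 0.0018 ± 0.18 (adjusted p = 0.998) with 15. The sexes overlapped in Pparg: the 8 female arrays averaged 1131 ± 237 (SD) and the 7 male arrays 1252 ± 177, with a log2 difference, female minus male, of -0.16 ± 0.14 (adjusted p = 0.524). With 16 arrays the sign was the other way, at 0.27 ± 0.44 (adjusted p = 0.798).

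The muscle-rich array held 0.0799 times the Pparg mean of the other 7 males. It decided how alike the pair of late factors looked: Cebpa and Pparg had r = 0.96 over 16 arrays and 0.41 over 15, and 0.32 and 0.29 within males and females. Other pairs of members had r between -0.12 and 0.38 over 15 arrays, but some differed within the sexes. Cebpa and Cebpd had -0.30 within males and -0.77 within females, and Cebpb and Pparg -0.61 and 0.69. The genes most like Pparg were Taldo1 (0.85), an enzyme of the pentose phosphate pathway, Bpgm (0.84), the bisphosphoglycerate mutase, Ifnar2 (0.82), an interferon receptor chain, Huwe1 (0.82), a ubiquitin ligase, and Mcfd2 (0.82), a cargo receptor partner. With 16 arrays Bpgm had r = -0.79.

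Of the other C/EBP family members and their dimer partners, 7 of the 9 on the array were tested and none passed in any contrast of DHT with vehicle. Their median change over all times was -0.09 with 16 arrays (0.04 over all genes) and -0.04 with 15 (0.01 over all genes), in the latter from -0.25 for Cebpg, a short C/EBP that lacks a strong activation domain, to 0.28 for Nfil3, a repressor with a related zipper. Cebpg read 346 ± 76.4 (SD, n = 3) under vehicle without the muscle-rich array, 316 ± 74.6 (n = 6) early and 271 ± 56.6 (n = 6) late. The stress-induced partner Ddit3 changed by -0.19 ± 0.22, and Fos and Jun by 0.23 ± 0.26 and -0.21 ± 0.18. Atf3, a stress-induced zipper factor, was the only one called between the sexes, higher in females in both fits (0.78 ± 0.10 with 15 arrays, limma, adjusted p = 0.000262; 559 ± 96.6 in 8 females against 321 ± 54.0 in 7 males). That is 1 of 7, where 8.83% of all genes tested were called higher in females with 15 arrays and 4.63% with 16. Trib3 and Batf stayed under the signal filter.

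Of the activators of adipocyte differentiation that act upstream, 15 of 19 on the array were tested and none passed a contrast of DHT with vehicle, early or over all times. The median change over all times was 0.04 with 15 arrays (0.01 over all genes) and 0.16 with 16 (0.04 over all genes). The highest values with 15 arrays were those of Ebf1 (0.28), a B cell and adipocyte lineage factor, Igf1 (0.27), a growth factor, and Klf9 (0.12), and the lowest values those of its relative Ebf2 (-0.47), of Srebf1 (-0.16), a regulator of lipid synthesis genes, and of Zfp467 (-0.10). Klf5, Creb1, Bmp2 and the glucocorticoid receptor Nr3c1 stayed under the filter, Nr3c1 at a median of 71.8. Between the sexes Id2, a dimer partner without a DNA-binding region, and Egr2, an early growth response factor, were higher in females in both fits (0.73 ± 0.12 and 0.44 ± 0.12 with 15 arrays, limma, adjusted p = 0.00117 and 0.0216). Stat5a, a cytokine signal transducer, was lower in females with 15 arrays alone (-0.39 ± 0.12, adjusted p = 0.0373). These are 2 of 15 higher and 1 of 15 lower, where 8.83% and 7.76% of all genes were called with 15 arrays.

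Of the inhibitors of differentiation, 14 of 22 on the array were tested and none passed a DHT contrast. Their median over all times was 0.13 with 16 arrays and 0.02 with 15, in the latter from -0.17 for Hes1 and Irf4 to 0.19 for Tcf7l2, a factor of Wnt signalling. Irf4, an interferon regulatory factor, read 190 ± 42.7 (SD, n = 3) under vehicle without the muscle-rich array, 363 ± 139 (n = 6) early and 115 ± 80.5 (n = 6) late. Its late minus early difference, -1.74 ± 0.36 with 15 arrays, did not pass (limma, adjusted p = 0.141). Dlk1 (preadipocyte factor 1), which preadipocytes lose as they differentiate, read 516 ± 112 (SD, n = 3) under vehicle without the muscle-rich array and 525 ± 118 (n = 12) under DHT. It was higher in the 8 females (610 ± 74.6) than in the 7 males (424 ± 36.9), with no overlap, as for 223 genes (3.92%); the log2 difference was 0.52 ± 0.11 (limma, adjusted p = 0.00728). Ccnd1, a cyclin of the G1 phase, was also higher in females in both fits (0.56 ± 0.10), and Tgfb1 in the fit of 15 arrays (0.91 ± 0.23). That makes 3 of 14 higher with 15 arrays and 2 of 14 with 16, beside 8.83% and 4.63% of all genes.

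Of the dimer partners and coregulators of PPAR gamma, 15 of 20 on the array were tested and none passed any contrast, the sexes included. The median over all times was 0.15 with 16 arrays (0.04 over all genes) and 0.12 with 15 (0.01 over all genes). Nrip1, a corepressor of nuclear receptors, read 681 ± 243 (SD, n = 3) under vehicle without the muscle-rich array, 1008 ± 140 (n = 6) early and 959 ± 141 (n = 6) late, a log2 change of 0.57 ± 0.19 over all times (limma, adjusted p = 0.998). Lpin1, a phosphatidate phosphatase that is also a coactivator, had 0.36 ± 0.12, and the coactivator Ncoa1 0.32 ± 0.16. The heterodimer partner Rxrb had -0.22 ± 0.22. Ppargc1a, Ppard, Rxrg, Ncoa2 and Sirt1 were under the filter.

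Of the adipocyte genes known as targets of PPAR gamma and C/EBP alpha, 26 of 27 on the array were tested. Their DHT change depended on the muscle-rich array as that of Cebpa and Pparg did: with 16 arrays 25 of 26 values over all times were positive, with a median of 0.74, and with 15 arrays 13 of 26, with a median of -0.01. None passed in either fit. The highest values with 15 arrays were those of Ucp1 (1.02 ± 0.52), the uncoupling protein of brown fat, Lpin1 and Plin4 (0.30 ± 0.08), a lipid droplet coat protein, and the lowest those of Slc27a1 (-0.37 ± 0.15), a fatty acid transporter, Gpd1 (-0.33 ± 0.12), which makes glycerol phosphate, and Dgat1 (-0.23 ± 0.15), a triglyceride synthesis enzyme.

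Between the sexes the targets lay on the same side as Cebpa with 15 arrays: 16 of the 26 were lower in females and none higher, with a median of -0.48 (0.00 over all genes), where 7.76% of all genes tested were called lower. All 6 adipocyte markers on the array are also among these targets. The lower targets and the lower adipocyte marker sums of females are thus partly the same genes. Plin4 read 6062 ± 876 (SD) in 8 females and 12172 ± 1431 in 7 males, a log2 difference of -0.98 ± 0.07 (limma, adjusted p = 1.43e-06). Pnpla2 had -0.71 ± 0.06, Cidec, a lipid droplet fusion protein, -0.86 ± 0.09, and Lipe, the hormone-sensitive lipase, -0.82 ± 0.09. Leptin (Lep) had -1.19 ± 0.20, and Cidea, often high where brown-like adipocytes are present, -1.53 ± 0.16. The others called lower in females were Pck1, Slc2a4, Slc27a1, Aqp7, Gpd1, Angptl4, Retn, Plin2, Dgat1 and Ucp1. With 16 arrays only Ucp1 of the 26 was called (-2.10 ± 0.53, adjusted p = 0.0393), and the median was -0.15.

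**Figure D5:**
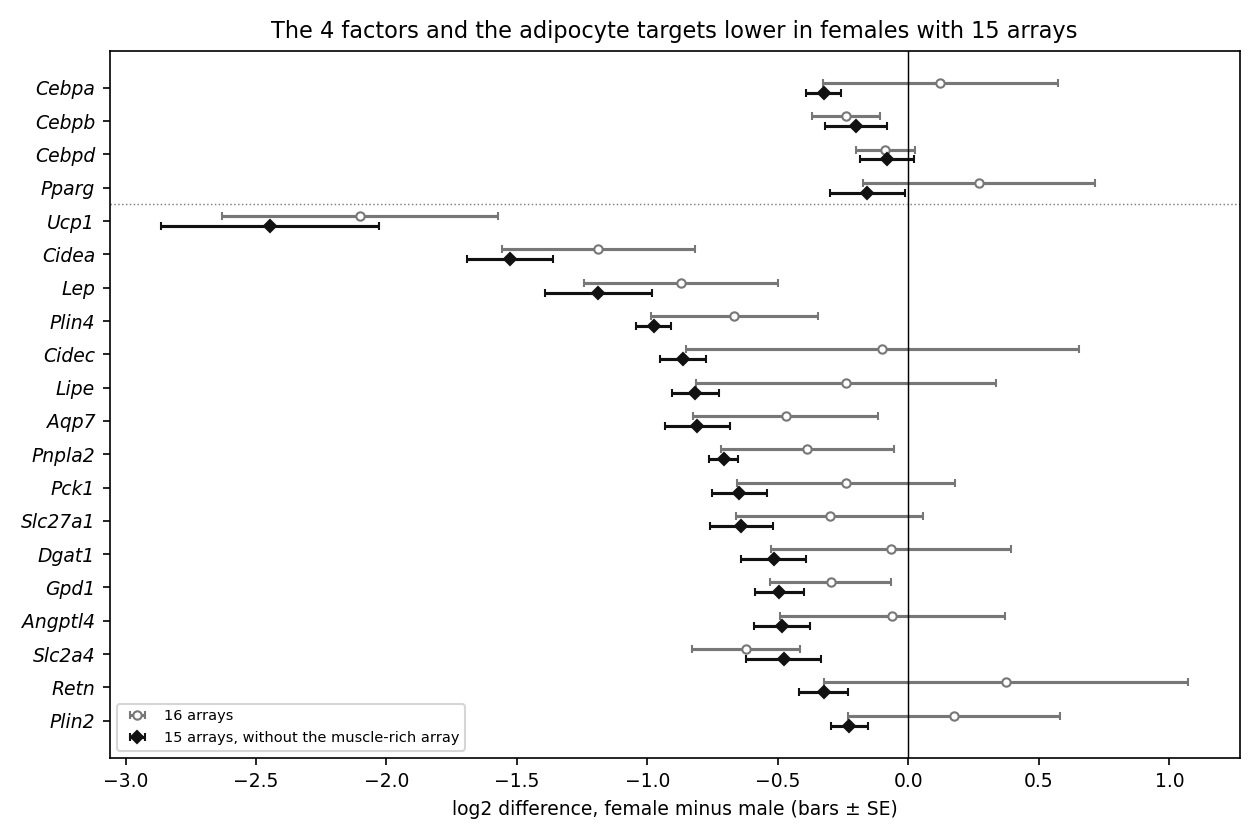
Log2 difference between the sexes, female minus male, with bars of ± 1 SE, for the 4 factors (above the dotted line) and for the 16 adipocyte targets lower in females with 15 arrays; open circles use 16 arrays, filled diamonds 15. Cebpa lay at -0.33 with 15 arrays and 0.12 with 16, and the SE of most genes was wider with the muscle-rich array in the fit.

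Of the acute phase and inflammatory genes that C/EBP beta and delta are known to regulate, 14 of 21 on the array were tested and none passed at the early times, when Cebpd was high. Their early median was -0.04 with 15 arrays, with 4 of 14 values positive, and the late median 0.18, with 11 of 14 positive. With 16 arrays both were higher, 0.49 early with 12 of 14 positive and 0.55 late with 14 of 14. For Ccl2 all 6 early arrays (455 to 762) lay above all 4 vehicle arrays (70.8 to 452), as for 29 of 5686 genes (0.51%). Its late arrays (385 to 774) overlapped the vehicle arrays. Cp read 1026 to 1605 under vehicle without the muscle-rich array and 909 to 1090 early. Lrg1, a secreted glycoprotein, read 2971 ± 309 (SD, n = 3) under vehicle without the muscle-rich array, 3049 ± 609 (n = 6) early and 5343 ± 1119 (n = 6) late. Its late change passed with 15 arrays (0.79 ± 0.11, limma, adjusted p = 0.0152; 5 genes called, 0.0879%), as did its rise from early to late (0.81 ± 0.09, adjusted p = 0.00398). Haptoglobin (Hp) was the other of the 2 genes called late against early (0.63 ± 0.07), at 11026 ± 2147 early and 17029 ± 2993 late. Neither passed with 16 arrays. In females Saa3, a serum amyloid of fat, was higher in both fits (1.48 ± 0.18 with 15 arrays, adjusted p = 0.000157), as was Cd14 in the fit of 15 arrays (0.39 ± 0.10). These are 2 of 14, beside 8.83% of all genes, and 1 of 14 with 16 arrays, beside 4.63%.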

How the data were processed

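Total RNA was hybridised to 16 Affymetrix MG-U74Av2 arrays of 12488 probe sets, and the deposited values are linear intensities made with MAS5, per the submitters' processing notes; its version and settings are not given in the sources used here. From the values, the 2% trimmed mean was 500 on every array, so all levels are relative to the whole array. Arrays have no count depth, and their number limits the precision.

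Gene names came from the platform annotation: 10833 probe sets had 1 symbol, 396 had several and were not named, and the rest had none or were not listed. The probe set with the highest mean stood for a gene, log2(signal + 16) was taken, and a gene stayed in the test when its mean reached the 40th percentile (a signal of 116), which 5686 did. limma 3.58.1 in R 4.3.3 fitted sex and DHT time as factors (8 residual degrees of freedom, 7 with 15 arrays), with a mean-variance trend in eBayes and Benjamini-Hochberg adjustment over all 5686 genes. The threshold was 0.05, two-sided. Sex differences of a response were terms in the model. The procedure was tested on simulated data with the noise of the fit of 15 arrays, so without an array like the muscle-rich one. Alternatives covered the pseudocount, normalisation, filter, probe sets, array weights, marker, antisense and BioB levels, groups, and each array left out.

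The members and gene lists were chosen with earlier results of these data known. From each list the text names genes past the threshold and some or all of the 3 highest and 3 lowest. These were ranked by the change over all DHT times with 15 arrays. For each member the text names the 5 genes of highest r over 15 arrays. Within-sex correlations were added after seeing the data.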

Additional observations from a re-analysis of the deposited data

Results flagged for a closer look

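Cebpa read 1322 on the second male vehicle array. Its gap to the next array was 0.927 of the range of the 4 vehicle arrays and 0.892 of the range of the 8 male arrays. Pparg read 100.03 there, with gaps of 0.846 and 0.844 of those ranges. Outliers were looked for in 20 groups of 4 to 8 arrays and found in 4, all on this array. These 4 are not independent, as the same array counts in the vehicle and the male group for both Cebpa and Pparg. It was also the array of highest muscle and lowest adipocyte marker signal, given above. Cebpb and Cebpd did not stand apart on it.

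With both vehicle arrays of each sex as the base, Cebpa was higher on all 6 male DHT arrays and lower on all 6 female ones. The difference between the sexes was tested in the model and was -1.87 on the log2 scale (limma, adjusted p = 0.594). Without the muscle-rich array it was -0.11.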

How the results depend on the processing

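Of 1267 values of members under alternatives, 1148 kept their direction and side of the threshold, 32 no longer passed, 11 newly passed and 76 changed sign. Among these 76, 16 passed the threshold under the alternative. The early call of Cebpd fell from 1 member to 0 under quantile normalisation (adjusted p = 0.0558), the same median signal (0.0765), no filter (0.0535), every probe set on its own (0.0624), eBayes without a trend (0.0729), the antisense covariate, a mean of its own for every combination of sex and time (0.999) and, chosen after seeing the data, a BioB factor (0.130, and 0.0711 with 15 arrays). Its change stayed positive in all of these, and leaving out 1 array gave 0 to 1 members. With array quality weights, 1 member, Cebpd, was called over all times, at 1 h, at 6 h and in the F test; leaving out 1 array gave 0 to 1 at 6 h. Between the sexes, 1 member (Cebpa) was called with the antisense covariate over 15 arrays and 0 to 1 with 1 array left out. The sex-by-DHT term called 0 to 2 members with 1 array left out: without the first male vehicle array, which leaves the muscle-rich array as the only male control, Cebpa had -3.62 and Pparg -3.70. The change of Cebpa over all times turned to -0.00021 with array weights, -0.045 with the antisense covariate (15 arrays), -0.063 with the muscle covariate, -0.11 in females alone, -0.0036 in males alone without the muscle-rich array, -0.073 with DHT times as 1 group of 15 arrays and -0.049 with the BioB factor (15 arrays). With an array left out it ranged from -0.094 to 1.21, and that of Pparg from -0.070 to 1.24; Pparg turned to -0.025 with the antisense covariate (15 arrays), -0.00040 with the muscle covariate and -0.21 in females alone. The female minus male difference of Cebpa turned to -0.32 with array weights, -0.28 with the antisense covariate (15 arrays), -0.52 with the muscle covariate, -0.078 with a mean for every combination of sex and time and -0.25 with the BioB factor (15 arrays); it ranged from -0.35 to 0.31 with arrays left out. That of Pparg turned to -0.11, -0.20 and -0.36 under the first 3 of these and ranged from -0.25 to 0.41. The sex-by-DHT term became 0.92 for Cebpa and 0.24 for Pparg with the muscle covariate. The early change of Cebpb was -0.024 with the antisense covariate over 16 arrays and ranged from -0.032 to 0.35 with an array left out. Over the settings other than left-out arrays, genes called ranged from 0 to 6 over all times (4 in the fit reported), 0 to 7 at 1 h (0), 0 to 14 at 6 h (3), 0 to 8 at 12 h (3), 0 to 7 early (3), 0 to 13 late (4), 0 to 9 in the F test (3) and 5 to 1205 between the sexes (327); the sex-by-DHT term called 1917 without the first male vehicle array. Apart from left-out arrays and added terms, the cause of these shifts was not tested. No paired analysis was possible because the labels give no replicate number that links arrays across groups. With 1 array for each sex and DHT time, a single time rests on 2 arrays, and a change that misses the threshold is not shown to be absent.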
